A study of Homo sapiens with 12 samples.

Results

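BCL2, BCL2L1, MCL1, BCL2L11, BBC3, PMAIP1, BID, BAD, BAX and BAK1 are 10 genes of the BCL2 family, which controls apoptosis at the mitochondrion. They were chosen by name, as 10 of the 26475 gene symbols in the deposited table, and all 10 were found and tested in every comparison. RNA-seq had been run on the human ovarian cancer lines PA-1 and SK-OV-3, each treated for 48 h with 5 µM BAY-850, an inhibitor of the ATAD2 bromodomain, or with the solvent DMSO alone. Each of the 4 groups (PA-1 DMSO, PA-1 BAY-850, SK-OV-3 DMSO and SK-OV-3 BAY-850) held 3 biological replicates, 12 libraries in all. Both lines are established, PA-1 from an ovarian teratocarcinoma and SK-OV-3 from an ovarian adenocarcinoma, so each stands for 1 tumor. The study grew PA-1 in DMEM and SK-OV-3 in RPMI medium. Line and medium therefore cannot be told apart in any comparison between the lines.

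The family works as a balance of proteins that bind each other. BCL2, BCL-XL (from BCL2L1) and MCL1 hold the pro-apoptotic proteins in check. The BH3-only proteins BIM (BCL2L11), PUMA (BBC3), NOXA (PMAIP1), BID and BAD sense stress and occupy or bypass these guards. BAX and BAK (BAK1) are the effectors, which open the outer mitochondrial membrane, release cytochrome c and start the caspases. RNA levels describe only 1 layer of this control, because binding, phosphorylation and turnover of the proteins also set it.

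Total counts ran from 34544505 to 51840233 per library. SK-OV-3 BAY-850 replicate 3 stood apart, with the highest total, 15629 genes with a count against 17425 to 18414 elsewhere, and 8.94% of its values not whole against 11 to 12.4%. The fold changes, calls, range counts and ratios of the members in SK-OV-3 are therefore also given without it. Line markers matched the labels in the main: LIN28A stood at 756 ± 56.0 CPM (counts scaled to a common library total with TMM factors; SD, n = 3) in PA-1 DMSO and 0.102 ± 0.101 in SK-OV-3 DMSO, and PAX8 at 0.369 ± 0.395 and 223 ± 7.28. Among the SK-OV-3 markers MUC16 was near 0 in both lines (0.0759 and 0.737 CPM under DMSO), and WT1 was higher in PA-1 (4.39 against 2.04 CPM). Under DMSO 7 of the 9 SK-OV-3 markers were called higher in SK-OV-3 than in PA-1 and 2 lower. Their summed level in PA-1 DMSO was 928 to 984 CPM. With BAY-850 the SK-OV-3 markers moved in SK-OV-3: of 9 tested 5 were called lower and 1 higher, with a median log2 fold change of -0.51, and their summed level went from 4351 to 4651 CPM under DMSO to 3200 to 3682 CPM. The epithelial genes EPCAM (-0.98), KRT19 (-0.67) and KRT8 (-0.51) were among those that fell, and PAX8 rose (0.55). The 7 PA-1 markers summed to at most 10.6 CPM in any SK-OV-3 library. The part of this shift in the SK-OV-3 results below was not tested.

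The upstream sequences of the 2 members called with BAY-850 in SK-OV-3, and of BAX, whose window is unusual, are shown from RefSeq (GRCh38.p14). Of these calls that of PMAIP1 was lost in 9 of 17 alternatives. Each is the 250 bases before the annotated start, read 5′ to 3′ on the strand of the gene. They lie at chr19:47232668-47232917 on the minus strand (BBC3), chr18:59899746-59899995 on the plus strand (PMAIP1) and chr19:48954625-48954874 on the plus strand (BAX). Capitals mark matches on either strand to CACGTG (an E-box), GGGCGG (a GC box), TGACGTCA (a cAMP response element), TGATGNAA (a core of the composite element bound by CHOP and ATF4) or TGANTCA (an AP-1 element).
BBC3: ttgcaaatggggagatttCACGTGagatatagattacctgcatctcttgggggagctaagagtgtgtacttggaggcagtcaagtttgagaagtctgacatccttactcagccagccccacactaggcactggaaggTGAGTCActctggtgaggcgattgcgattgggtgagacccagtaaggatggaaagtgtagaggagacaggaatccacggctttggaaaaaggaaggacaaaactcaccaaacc
PMAIP1: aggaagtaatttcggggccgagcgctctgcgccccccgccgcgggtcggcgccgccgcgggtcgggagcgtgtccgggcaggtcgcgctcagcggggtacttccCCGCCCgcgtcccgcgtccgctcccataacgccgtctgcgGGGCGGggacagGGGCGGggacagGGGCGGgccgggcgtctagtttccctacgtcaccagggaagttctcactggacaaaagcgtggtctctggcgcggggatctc
BAX: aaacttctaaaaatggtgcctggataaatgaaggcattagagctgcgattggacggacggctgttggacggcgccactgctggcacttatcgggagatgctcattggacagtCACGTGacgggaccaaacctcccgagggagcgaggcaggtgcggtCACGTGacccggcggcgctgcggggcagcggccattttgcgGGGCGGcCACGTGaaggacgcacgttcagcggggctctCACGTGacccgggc

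The BBC3 window held 1 CACGTG, which was present in 6.34% of 35116 RefSeq promoters of the same length, and 1 TGANTCA, present in 6.57%. The PMAIP1 window held 4 matches to GGGCGG, a motif found at least once in 42.6% of all promoters. How many promoters hold 4 or more was not computed for this motif. In BAX there were 4 matches to CACGTG, a number reached in 5 of the 35116 promoters, and 1 to GGGCGG. The BAX window was picked for this count after all motifs were sought in 15 windows, so its rarity is no test. No capital run here is a join of overlapping motifs. TGACGTCA (1.65% of promoters) and TGATGNAA (3.14%) were absent from all 15 windows listed for the members. Entries existed for 9 of the 10 members, and MCL1 had none. These matches describe letters only.

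BBC3, the gene of PUMA, rose in SK-OV-3 and was the member with the largest change. Its 3 SK-OV-3 DMSO libraries held 2.36, 2.96 and 2.67 CPM, and the 3 BAY-850 libraries held 7.72, 8.5 and 10.7 CPM. These values rested on expected counts of 94, 112 and 103 and of 314, 359 and 573. Every BAY-850 library was thus above every DMSO library, and the highest was replicate 3. The group means were 2.67 ± 0.299 and 8.96 ± 1.53 CPM (SD, n = 3), a 3.40-fold difference (log2 fold change 1.77, SE 0.195, 95% interval 1.34 to 2.20, edgeR adjusted p = 9.39e-05). Without BAY-850 replicate 3 the log2 fold change was 1.61 (adjusted p = 2.79e-05). In bulk RNA, fewer cells of a type and less RNA per cell cannot be told apart, and this holds for every level given here.

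In PA-1 the same gene lay at a far higher level and showed no detectable response. The DMSO libraries held 34.2, 35.5 and 31.8 CPM of BBC3 and the BAY-850 libraries 34.5, 33.9 and 30.5 CPM, so the groups overlapped. The log2 fold change was -0.04 (SE 0.0734, 95% interval -0.19 to 0.12, adjusted p = 0.820). The difference between the responses of the lines was itself tested and came to 1.79 on the log2 scale (SE 0.178, adjusted p = 1.02e-05; 1.64 without SK-OV-3 BAY-850 replicate 3). Even after treatment SK-OV-3 had less BBC3 RNA than PA-1: the ratio of the group means, PA-1 over SK-OV-3, was 12.7 under DMSO and 3.68 under BAY-850.

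PMAIP1, which encodes NOXA, the BH3-only partner of MCL1, moved by a much smaller step. Its SK-OV-3 DMSO libraries held 251, 256 and 258 CPM and its BAY-850 libraries 287, 298 and 263 CPM. The groups did not overlap, although BAY-850 replicate 3 came within a few CPM of the DMSO libraries. The rise was 1.12-fold (log2 fold change 0.16, SE 0.0504, 95% interval 0.05 to 0.27, adjusted p = 0.0443), and 0.20 on the log2 scale without replicate 3 (adjusted p = 0.0112). This call lay close to the threshold. It was lost with scaling by library size alone (adjusted p = 0.126), in 4 further settings, the replicate block among them (0.0792), and on leaving out DMSO replicate 2 (0.136), DMSO replicate 3 (0.102), BAY-850 replicate 1 (0.132) or BAY-850 replicate 2 (0.195).

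PA-1 held little PMAIP1 RNA, with 13.5, 15.9 and 13.9 CPM under DMSO and 13.7, 11.8 and 12.1 CPM under BAY-850. These groups overlapped, and the log2 fold change was -0.21 (SE 0.108, adjusted p = 0.262). The difference between the responses was 0.36 on the log2 scale (SE 0.103, adjusted p = 0.0286; 0.41 without SK-OV-3 BAY-850 replicate 3). That call was lost under limma-voom (adjusted p = 0.0853), with the replicate block (0.0716) and without any 1 of 5 libraries: PA-1 DMSO replicate 2 (0.0994), PA-1 BAY-850 replicate 2 (0.0887), PA-1 BAY-850 replicate 3 (0.0640), SK-OV-3 DMSO replicate 1 (0.0515) or SK-OV-3 BAY-850 replicate 2 (0.0516).

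**Figure D1:**
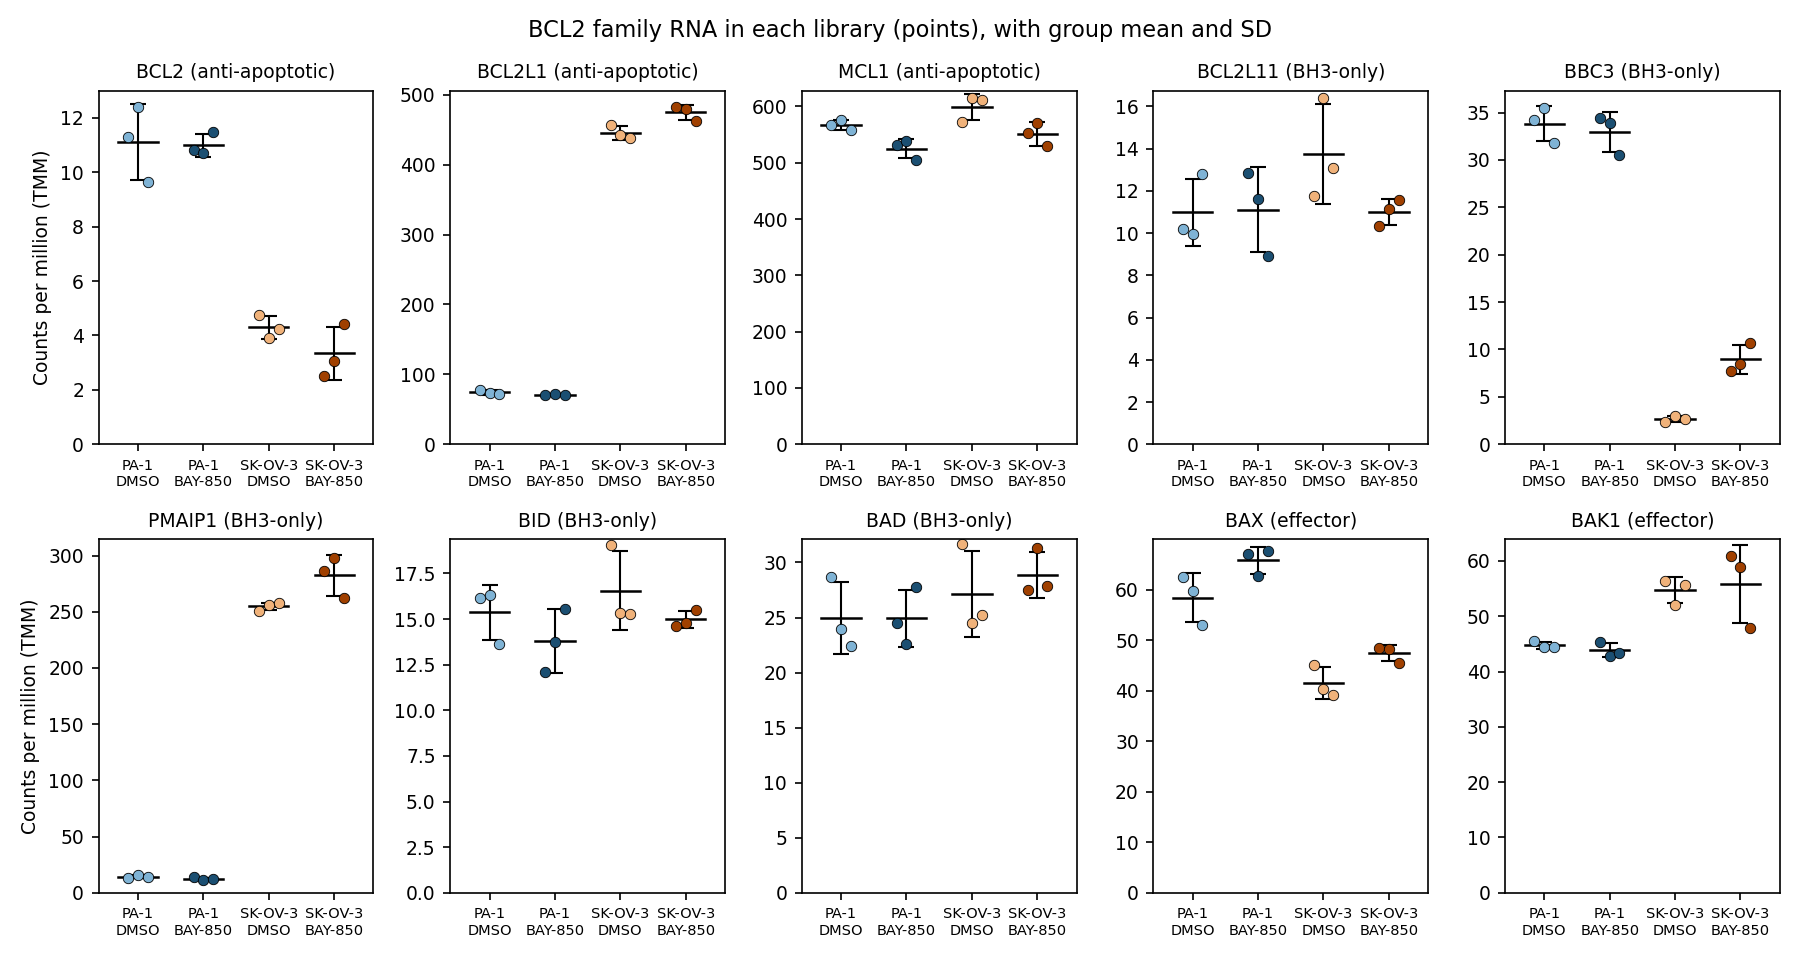
CPM of the 10 members (vertical axes, linear and from 0, scaled by TMM) in the 12 libraries, with 1 point per library and lines for the group mean and SD. BBC3 moves from 2.67 to 8.96 CPM in SK-OV-3 while its PA-1 groups overlap, and PMAIP1 stands at 255 CPM in SK-OV-3 DMSO against 14.5 CPM in PA-1 DMSO.

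The other BH3-only members did not pass the test in either line. BCL2L11, the gene of BIM, ranged from 8.89 to 12.8 CPM over the 6 PA-1 libraries. In SK-OV-3 its DMSO libraries held 11.8, 16.4 and 13.1 CPM and its BAY-850 libraries 10.3, 11.1 and 11.6 CPM, all of them below the DMSO values (log2 fold change -0.31, SE 0.140, adjusted p = 0.154). BID links death receptors to the mitochondrion once caspase-8 has cleaved it. Its means were 15.4 ± 1.5 and 13.8 ± 1.74 CPM in PA-1 and 16.5 ± 2.16 and 15 ± 0.452 CPM in SK-OV-3, for DMSO and BAY-850 in turn, with overlapping libraries in both lines. BAD, which survival kinases switch off by phosphorylation, overlapped as well, its log2 fold change being 0.00 for PA-1 (95% interval -0.22 to 0.22) and 0.10 for SK-OV-3 (-0.13 to 0.34).

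None of the anti-apoptotic members passed the test in either line. MCL1 encodes a short-lived guard protein that NOXA binds. In PA-1 its libraries held 567, 576 and 558 CPM under DMSO and 531, 539 and 506 CPM under BAY-850, and in SK-OV-3 573, 614 and 611 CPM and 554, 571 and 529 CPM. All BAY-850 libraries lay below all DMSO libraries in both lines. The log2 fold changes were both -0.11, with 95% intervals of -0.22 to -0.0012 in PA-1 (adjusted p = 0.206) and -0.21 to -0.01 in SK-OV-3 (adjusted p = 0.123). The 2 comparisons share no library.

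BCL2L1, the gene of BCL-XL, lay below its DMSO range in PA-1 (70.1, 72 and 70.7 CPM against 77.7, 72.8 and 72.1) and above it in SK-OV-3 (482, 479 and 463 CPM against 457, 442 and 438). Neither difference passed the test, with log2 fold changes of -0.06 (adjusted p = 0.560) and 0.10 (adjusted p = 0.118). The difference between the responses was 0.15 on the log2 scale (SE 0.0646, edgeR adjusted p = 0.126), and it passed under DESeq2 (0.0266) and with the GC trend removed (0.0323). Of the 2859 exonic bases of BCL2L1, 1224 also lie in the antisense gene ABALON, so reads of the pair cannot be told apart if strand was not used in counting.

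BCL2 itself was the scarcest member per kilobase of exon in all 4 groups. Its PA-1 libraries ranged from 9.65 to 12.4 CPM, and the log2 fold change there was -0.02 (SE 0.118). In SK-OV-3 the DMSO libraries held 4.75, 3.92 and 4.25 CPM and the BAY-850 libraries 2.51, 3.08 and 4.43 CPM, the last being replicate 3. The log2 fold change of -0.35 (SE 0.254, adjusted p = 0.382) became -0.62 without that replicate, which passed the test (adjusted p = 0.0424).

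The effector BAX lay higher with BAY-850 in every library of both lines without passing the test. In PA-1 it held 62.5, 59.7 and 53 CPM under DMSO and 67.0, 62.7 and 67.6 CPM under BAY-850 (log2 fold change 0.17, SE 0.0694, adjusted p = 0.140). In SK-OV-3 it held 45.1, 40.3 and 39.1 CPM and 48.4, 48.2 and 45.5 CPM (log2 fold change 0.20, SE 0.0750, adjusted p = 0.0798). The SK-OV-3 value was 0.27 and passed without DMSO replicate 1 (adjusted p = 0.0237). BAK1 overlapped in both lines, with a log2 fold change of -0.03 for PA-1 and 0.04 for SK-OV-3 (0.13 without BAY-850 replicate 3, whose 47.8 CPM was the lowest SK-OV-3 value).

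Counted together, 0 of the 10 members passed the edgeR test in PA-1, where 4.65% of 15212 genes were called higher and 2.48% lower. Those are 707 and 378 genes, a split that became 235 and 231 with library size alone, 543 and 505 without ribosomal RNA genes and 487 and 129 with the GC trend removed. At an unadjusted p under 0.05 there were 2, MCL1 and BAX, and neither DESeq2 nor limma-voom called any. The 95% intervals of the 10 members in PA-1 together reached from -0.44 (PMAIP1) to 0.33 (BCL2L11) on the log2 scale. In SK-OV-3 2 of 10 were called higher and 0 lower, beside 10.8% and 9.56% of 15348 genes. In SK-OV-3 without BAY-850 replicate 3 the log2 fold changes of the members not named above were -0.36 for BCL2L11 (edgeR adjusted p = 0.0882), -0.17 for BID, 0.12 for BAD, -0.09 for MCL1, 0.11 for BCL2L1 and 0.22 for BAX (0.0562), and none of these passed. Without DMSO replicate 1 there were 5 calls (BBC3, PMAIP1, BCL2L1, MCL1 and BAX), and without BAY-850 replicate 3 there were 3 (BBC3, PMAIP1 and BCL2). Over all genes, 2933 of 15678 were called without DMSO replicate 1 and 3902 of 15674 without BAY-850 replicate 3. The main fit called 3130 of 15348.

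Library ranges gave a similar picture. In PA-1 1 member lay wholly above its DMSO range and 2 below it, where 14.1% and 13.3% of all genes did. In SK-OV-3 4 lay above and 2 below, where 18.1% and 20.5% did. Without BAY-850 replicate 3, a setting chosen after seeing the data, these became 5 above (BAK1 added) and 4 below (MCL1 and BCL2L11 with BCL2 and BID added), where 26.7% and 25.5% of all genes did. For the difference between the responses, 2 members were called higher in SK-OV-3 and 0 lower, beside 6.7% and 7.77% of 16830 genes (1128 and 1307 genes, or 1062 and 773 with library size alone). The median log2 fold change of the 7 pro-apoptotic members was -0.03 in PA-1 and 0.10 in SK-OV-3, that of the 3 anti-apoptotic members -0.06 and -0.11, and that of all genes tested 0.00 and -0.01.

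**Figure D2:**
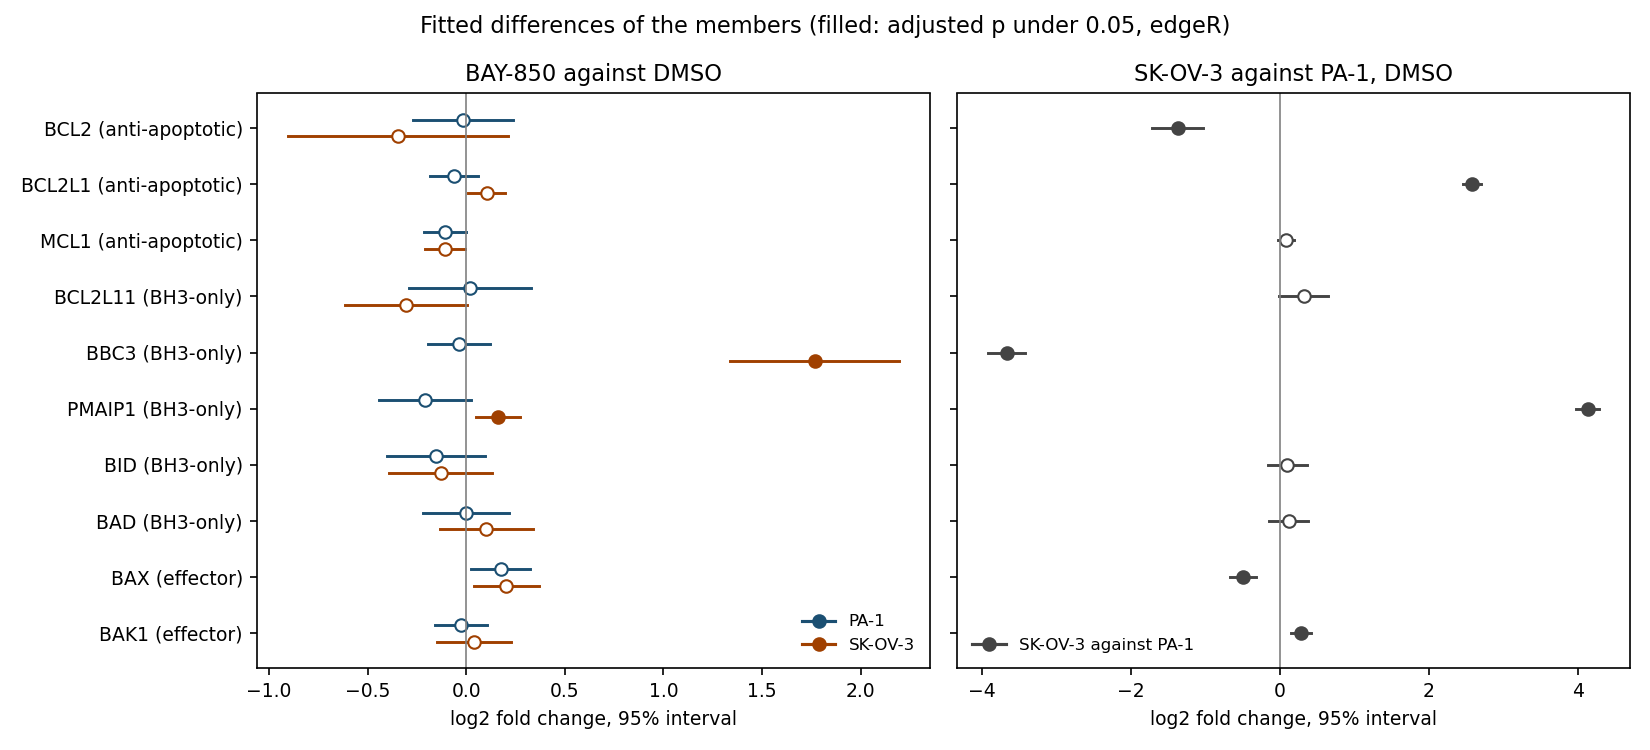
Log2 fold changes with 95% intervals (horizontal axes) for each member, BAY-850 against DMSO in PA-1 and SK-OV-3 on the left and SK-OV-3 against PA-1 under DMSO on the right, where the axis is wider. Filled points passed an adjusted p of 0.05 in edgeR: with BAY-850 these are BBC3 (1.77) and PMAIP1 (0.16), both in SK-OV-3.

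The lines differed far more from each other than either did after BAY-850. Under DMSO 3 members were called higher in SK-OV-3 and 3 lower, beside 40.1% and 40.2% of 16070 genes. PMAIP1 was 17.5-fold higher (log2 fold change 4.13, SE 0.0715, adjusted p = 6.05e-14), BCL2L1 6-fold higher (2.58, SE 0.0555, adjusted p = 3.59e-13) and BAK1 1.22-fold higher (0.29, SE 0.0625, adjusted p = 0.000989). The lower ones were BBC3 (log2 fold change -3.67, SE 0.115, adjusted p = 1.18e-11), BCL2 (-1.37, SE 0.157, adjusted p = 3.72e-06) and BAX (-0.49, SE 0.0804, adjusted p = 9.18e-05). MCL1, BCL2L11, BID and BAD did not pass, with log2 fold changes of 0.08 to 0.32. Of 16 alternatives, BCL2L11 passed in 5, MCL1 in 2 and BAD in 1. This comparison shares its DMSO libraries with those above, and the lines also differed in culture medium.

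Levels of different genes were compared per kilobase of exon. In PA-1 DMSO the order was MCL1 (139 ± 2.14 CPM per kilobase), BAX (41.3 ± 3.46), BCL2L1 (25.9 ± 1.07), BAK1 (20.2 ± 0.290), BAD (18.8 ± 2.46), BBC3 (16.2 ± 0.879), PMAIP1 (6.88 ± 0.604), BID (5.47 ± 0.534), BCL2L11 (1.80 ± 0.258) and BCL2 (0.947 ± 0.118). BAK1, BAD and BBC3 overlapped with their neighbors, and the rest were apart. In SK-OV-3 DMSO it was BCL2L1 (156 ± 3.40 CPM per kilobase), MCL1 (147 ± 5.68), PMAIP1 (121 ± 1.66), BAX (29.4 ± 2.27), BAK1 (24.7 ± 1.05), BAD (20.5 ± 2.95), BID (5.89 ± 0.771), BCL2L11 (2.26 ± 0.389), BBC3 (1.27 ± 0.143) and BCL2 (0.367 ± 0.0359). Only BAK1 and BAD overlapped there. With BAY-850 the PA-1 order was the same. In SK-OV-3 BBC3 moved past BCL2L11, with 4.28 ± 0.729 against 1.81 ± 0.102 CPM per kilobase, and PMAIP1 (134 ± 8.59) came to overlap MCL1 (135 ± 5.14).

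The make-up of the family RNA thus differed between the lines. MCL1 made up 50.2 ± 1.23% of the summed member level in PA-1 DMSO and BCL2L1 9.39 ± 0.257%. In SK-OV-3 DMSO BCL2L1 made up 30.7 ± 0.527%, MCL1 28.9 ± 1.24% and PMAIP1 23.9 ± 0.434%. BBC3 took 5.85 ± 0.183% in PA-1 DMSO, 0.251 ± 0.0290% in SK-OV-3 DMSO and 0.816 ± 0.171% in SK-OV-3 BAY-850.

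Pro- and anti-apoptotic members were set against each other as the log2 ratio of their summed levels per kilobase, which has no test here. The ratio was -0.58 ± 0.0699 in PA-1 DMSO and -0.44 ± 0.0827 in PA-1 BAY-850, and the libraries overlapped (-0.66 to -0.52 and -0.53 to -0.37). In SK-OV-3 it was -0.56 ± 0.0446 and -0.41 ± 0.0423, and the libraries did not overlap (-0.60 to -0.51 and -0.46 to -0.37). On this scale the ratio was thus much alike between the lines under DMSO, although both sums were higher in SK-OV-3 (303 ± 2.58 against 166 ± 2.59 CPM per kilobase for the anti-apoptotic members, and 205 ± 4.68 against 111 ± 6.82 for the pro-apoptotic ones). Without PMAIP1 the DMSO ratio was -0.68 ± 0.0765 in PA-1 and -1.85 ± 0.116 in SK-OV-3. With BAY-850 it was then -0.52 ± 0.0831 in PA-1 and -1.71 ± 0.0262 in SK-OV-3. Without PMAIP1 the SK-OV-3 libraries overlapped (-1.93 to -1.72 under DMSO and -1.74 to -1.69 under BAY-850), as did those of PA-1. Without dividing by length the 4 ratios were lower, from -1.69 in PA-1 DMSO to -1.20 in SK-OV-3 BAY-850, and the step with BAY-850 kept its direction in both lines. The likeness of the lines under DMSO was then lost, with no overlap (-1.74 to -1.64 in PA-1 and -1.38 to -1.31 in SK-OV-3).

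Single pairs followed the members. BBC3 over BCL2L1 stood at -6.94 ± 0.188 in SK-OV-3 DMSO and -5.29 ± 0.271 in SK-OV-3 BAY-850, and at -0.68 ± 0.0835 and -0.66 ± 0.0946 in PA-1, on the log2 scale. PMAIP1 over MCL1 went from -0.27 ± 0.0389 to -0.01 ± 0.0391 in SK-OV-3, without overlap, and was -4.34 ± 0.108 and -4.44 ± 0.119 in PA-1. BAX over MCL1 was -1.75 ± 0.109 and -1.46 ± 0.102 in PA-1 and -2.32 ± 0.165 and -2.01 ± 0.0258 in SK-OV-3, with no overlap in either line. The ratios were not corrected for GC content, which PA-1 fold changes followed (Spearman's rho 0.37) and which is 60.4% for BAX and 45.7% for MCL1. Over all alternatives the PA-1 log2 fold change ran from 0.08 to 0.22 for BAX and from -0.14 to -0.07 for MCL1. The part of GC content in this ratio was not tested. BAK1 over MCL1 and BCL2L11 over MCL1 overlapped between treatments in both lines. BAX over BCL2 overlapped in SK-OV-3 (6.26 to 6.42 and 6.42 to 7.33) but not in PA-1 (5.32 to 5.52 and 5.61 to 5.69). Without SK-OV-3 BAY-850 replicate 3 the SK-OV-3 BAY-850 means were -0.39 for the summed ratio, -5.44 for BBC3 over BCL2L1, 0.02 for PMAIP1 over MCL1 and -2.01 for BAX over MCL1, none overlapping with DMSO. BAX over BCL2 (7.18), BAK1 over MCL1 (-2.35) and BCL2L11 over MCL1 (-6.29) then no longer overlapped with DMSO either.

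**Figure D3:**
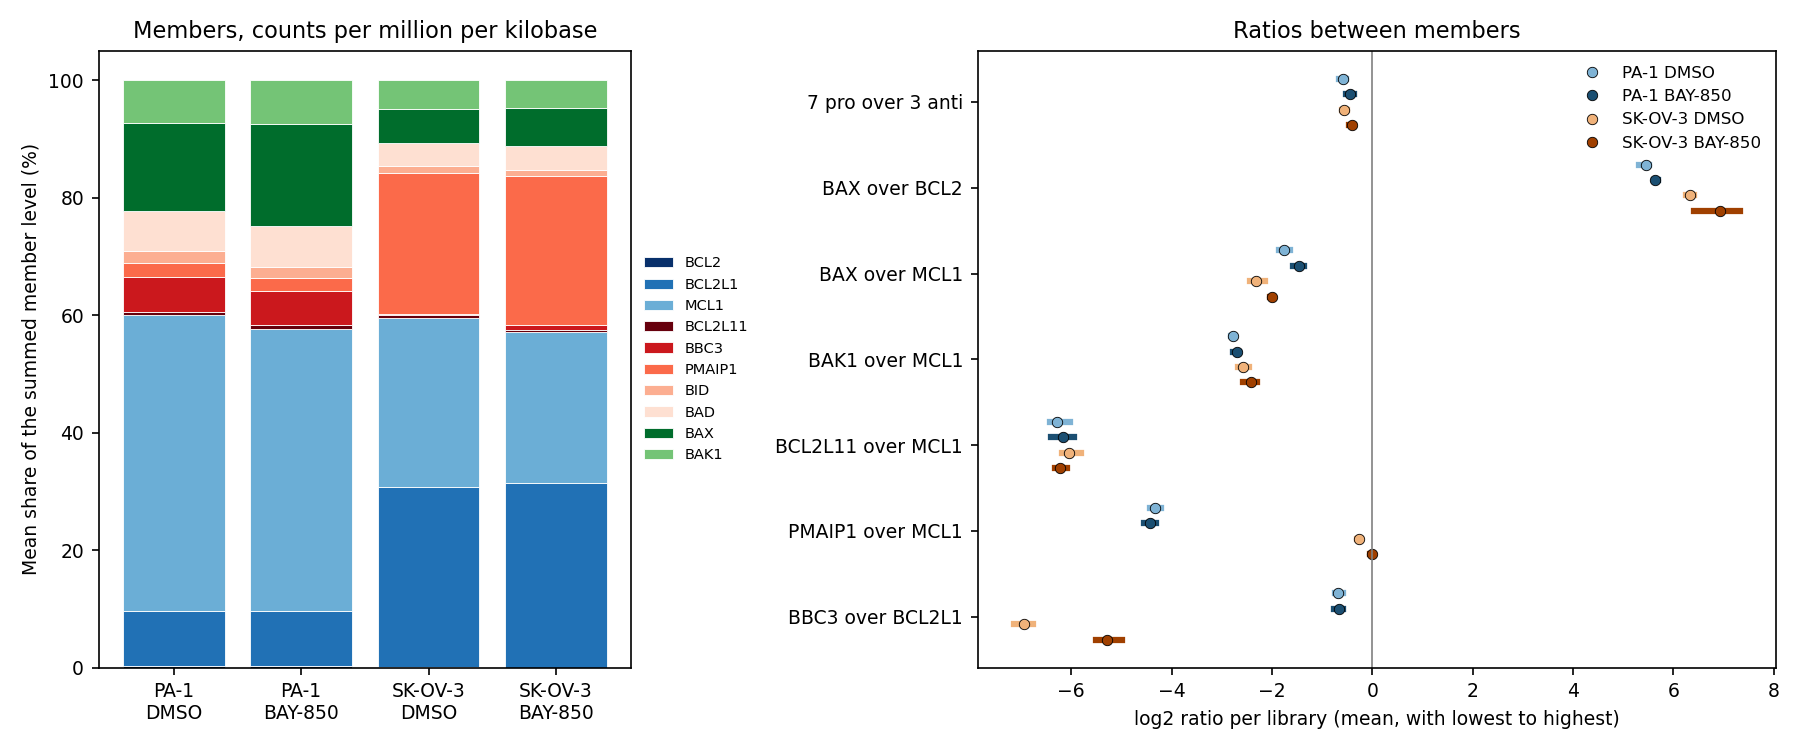
Left, mean share of each member in the summed CPM per kilobase of the 10 members, in percent, for the 4 groups. Right, log2 ratios between members for the same groups, with points for the mean and bars from the lowest to the highest of 3 libraries. BCL2L1, MCL1 and PMAIP1 take up most of the bar in SK-OV-3, and BBC3 over BCL2L1 goes from -6.94 to -5.29 there.

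The genes whose profiles were most like those of the called members were found by Pearson's r over log2(CPM + 0.5) in the 12 libraries, after removing the mean of each line, among 13861 genes. For BBC3 these were GARS, a tRNA synthetase (r = 0.996), MTHFD2, a mitochondrial folate enzyme (r = 0.985), and OPTN, an autophagy receptor (r = 0.983). In SK-OV-3 GARS went from 78.9 ± 3.05 to 117 ± 8.70 CPM, MTHFD2 from 69.0 ± 2.95 to 113 ± 12.1 CPM and OPTN from 81.5 ± 1.16 to 143 ± 6.16 CPM. For PMAIP1 they were LARP1B (r = 0.944), FGD4 (r = 0.926) and CLIP4 (r = 0.916). The points share their libraries, and the coefficients are descriptions.

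**Figure D4:**
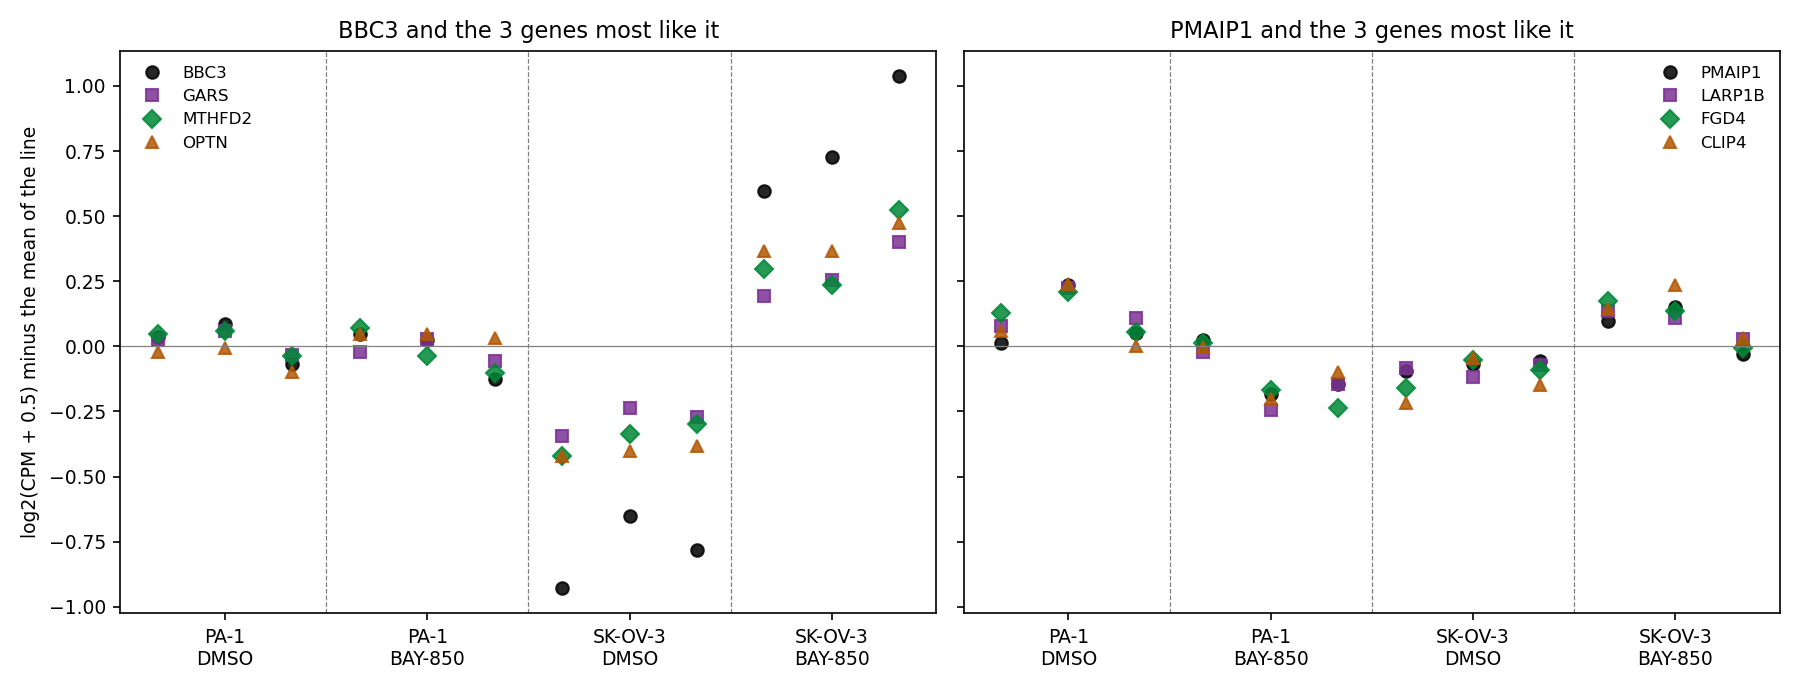
Log2(CPM + 0.5) minus the mean of the line (vertical axis) for BBC3 and PMAIP1 and the 3 genes most like each, in the 12 libraries by group, with replicates 1 to 3 from left to right. The BBC3 set parts the SK-OV-3 groups and stays near 0 in PA-1, and PMAIP1 follows its 3 genes (r from 0.916 to 0.944).

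Further apoptosis genes were read from 7 lists, which together hold 74 genes. In PA-1 5 of the 69 tested were called, 4 higher and 1 lower, beside 4.65% and 2.48% of all genes. In SK-OV-3 19 of 71 were called, 13 higher and 6 lower, beside 10.8% and 9.56%, and all 19 remained called without BAY-850 replicate 3. Of the calls, 1 in PA-1 and 12 in SK-OV-3 held in every alternative.

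Of the other BCL2 family genes BMF, a further BH3-only gene, rose in SK-OV-3 from 17.9 ± 0.996 to 25.8 ± 1.82 CPM (log2 fold change 0.54, SE 0.0978, adjusted p = 0.00262), the only call among 8 tested, of which 3 had an unadjusted p under 0.05. PA-1 had none among 8 with edgeR, DESeq2 or limma-voom, and 2 at an unadjusted p under 0.05. In the list of the apoptosome, caspases and their activators, APAF1, which forms the apoptosome with cytochrome c, rose in PA-1 from 16.1 ± 0.916 to 20.7 ± 0.631 CPM (0.36, adjusted p = 0.0222) as 1 of 13. That call was lost without PA-1 DMSO replicate 1 (adjusted p = 0.0736), DMSO replicate 3 (0.0518) or BAY-850 replicate 2 (0.109), with library size alone (0.0869) and with all 12 libraries in 1 fit (0.182). No gene of this list passed in SK-OV-3 with edgeR, DESeq2 or limma-voom, and 1 had an unadjusted p under 0.05.

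Inhibitors of caspases moved both ways in SK-OV-3, with 1 of 7 higher and 2 lower. None passed in PA-1 with edgeR, DESeq2 or limma-voom, where 3 had an unadjusted p under 0.05. BIRC3, the gene of cIAP2, rose from 8.36 ± 0.814 to 26.9 ± 1.87 CPM (log2 fold change 1.70, SE 0.110, adjusted p = 1.5e-06). BIRC5, the gene of survivin, which also acts in mitosis, fell from 138 ± 8.05 to 104 ± 4.55 CPM (-0.39, adjusted p = 0.00108). CFLAR, an inhibitor of caspase-8 activation, fell from 69.3 ± 0.949 to 48.3 ± 12.6 CPM (-0.52, adjusted p = 0.0259), a call lost without any 1 of the 3 DMSO libraries (adjusted p = 0.0733 to 0.0895).

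In the death receptor arm 3 of 8 genes rose in SK-OV-3 and 1 fell. In PA-1 none of 6 passed with edgeR, where 1 had an unadjusted p under 0.05, and DESeq2 and limma-voom each called 1. The TRAIL receptor TNFRSF10B rose from 100 ± 2.93 to 139 ± 11.5 CPM (log2 fold change 0.48, SE 0.0619, adjusted p = 0.000261). The second TRAIL receptor, TNFRSF10A, rose from 3.85 ± 0.366 to 6.80 ± 0.905 CPM (0.83, adjusted p = 0.00852; 0.0529 when all 12 libraries were fitted together). The adaptor FADD rose by 0.23 on the log2 scale (adjusted p = 0.0250), a call lost with library size alone (0.0549) and without DMSO replicate 2 (0.0867), DMSO replicate 3 (0.110), BAY-850 replicate 1 (0.0732) or BAY-850 replicate 2 (0.0895). The kinase RIPK1 fell by 0.30 (adjusted p = 0.0139), and this was lost without DMSO replicate 2 (0.0725) or BAY-850 replicate 1 (0.0560).

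Among 16 genes of the DNA damage and stress response, 4 rose and 1 fell in SK-OV-3 and 1 rose in PA-1. CDKN1A, the gene of the cell cycle inhibitor p21, rose in SK-OV-3 from 16.9 ± 1.13 to 26.2 ± 4.04 CPM (log2 fold change 0.64, SE 0.116, adjusted p = 0.00264). SESN2, a stress-induced regulator of mTORC1, rose from 26.0 ± 1.73 to 38.9 ± 3.84 CPM (0.59, adjusted p = 0.000746), and CCNG1 from 71.6 ± 2.04 to 87.0 ± 1.17 CPM (0.29, adjusted p = 0.00391). PHLDA3 was called in both lines (0.53 in PA-1, adjusted p = 0.0302, and 0.31 in SK-OV-3, adjusted p = 0.0141), and RRM2B fell in SK-OV-3 by 0.27 (adjusted p = 0.0485). The PHLDA3 call in PA-1 was lost without DMSO replicate 1 (0.104), DMSO replicate 2 (0.0754), BAY-850 replicate 2 (0.0916) or BAY-850 replicate 3 (0.0877), with the GC trend removed (0.0789) and with library size alone (0.0686). In SK-OV-3 it was lost without DMSO replicate 2 (0.0684), DMSO replicate 3 (0.0670) or BAY-850 replicate 2 (0.0678). The RRM2B call was lost without DMSO replicate 1 (0.0899), 2 (0.163) or 3 (0.130) or BAY-850 replicate 1 (0.177), and also under limma-voom (0.0501), with the replicate block (0.0620), with the GC trend removed (0.0699) and with library size alone (0.0755). The SK-OV-3 median of the list was -0.03, beside -0.01 for all genes.

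Transcription factors known to act on the members moved most in SK-OV-3, where 4 of 7 rose and 1 fell. DDIT3, the gene of CHOP, rose from 52.3 ± 1.35 to 118 ± 1.86 CPM (log2 fold change 1.19, SE 0.0573, adjusted p = 1.36e-07), and in PA-1 it fell from 236 ± 5.97 to 182 ± 13.5 CPM (-0.38, SE 0.0616, adjusted p = 0.00196). ATF4, its partner in the integrated stress response, rose in SK-OV-3 from 407 ± 13.8 to 552 ± 12 CPM (0.45, adjusted p = 8.07e-05). FOXO3 rose by 0.40 (adjusted p = 0.000285) and FOXO1 by 0.43 (adjusted p = 0.0109), both known activators of BH3-only genes. E2F1, a cell cycle factor, fell from 49.7 ± 1.92 to 31.0 ± 2.02 CPM (-0.67, adjusted p = 9.94e-05).

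Of 12 partners and regulators of turnover of the member proteins, 2 rose in PA-1 and 1 fell in SK-OV-3. HUWE1, a ubiquitin ligase of MCL1, rose in PA-1 by 0.33 (adjusted p = 0.0240) and BAG6 by 0.30 (adjusted p = 0.0204). VDAC3, a channel of the outer membrane, fell in SK-OV-3 by 0.22 (adjusted p = 0.0293). All 3 calls were lost with scaling by library size alone (adjusted p = 0.136, 0.114 and 0.0562). HUWE1 and BAG6 were also lost without PA-1 DMSO replicate 1 (0.105 and 0.0952), DMSO replicate 2 (0.113 and 0.121) or BAY-850 replicate 2 (0.133 and 0.106), and BAG6 with the GC trend removed (0.0720). VDAC3 was lost without SK-OV-3 DMSO replicate 2 (0.0930), DMSO replicate 3 (0.132), BAY-850 replicate 1 (0.0878) or BAY-850 replicate 2 (0.132).

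**Figure D5:**
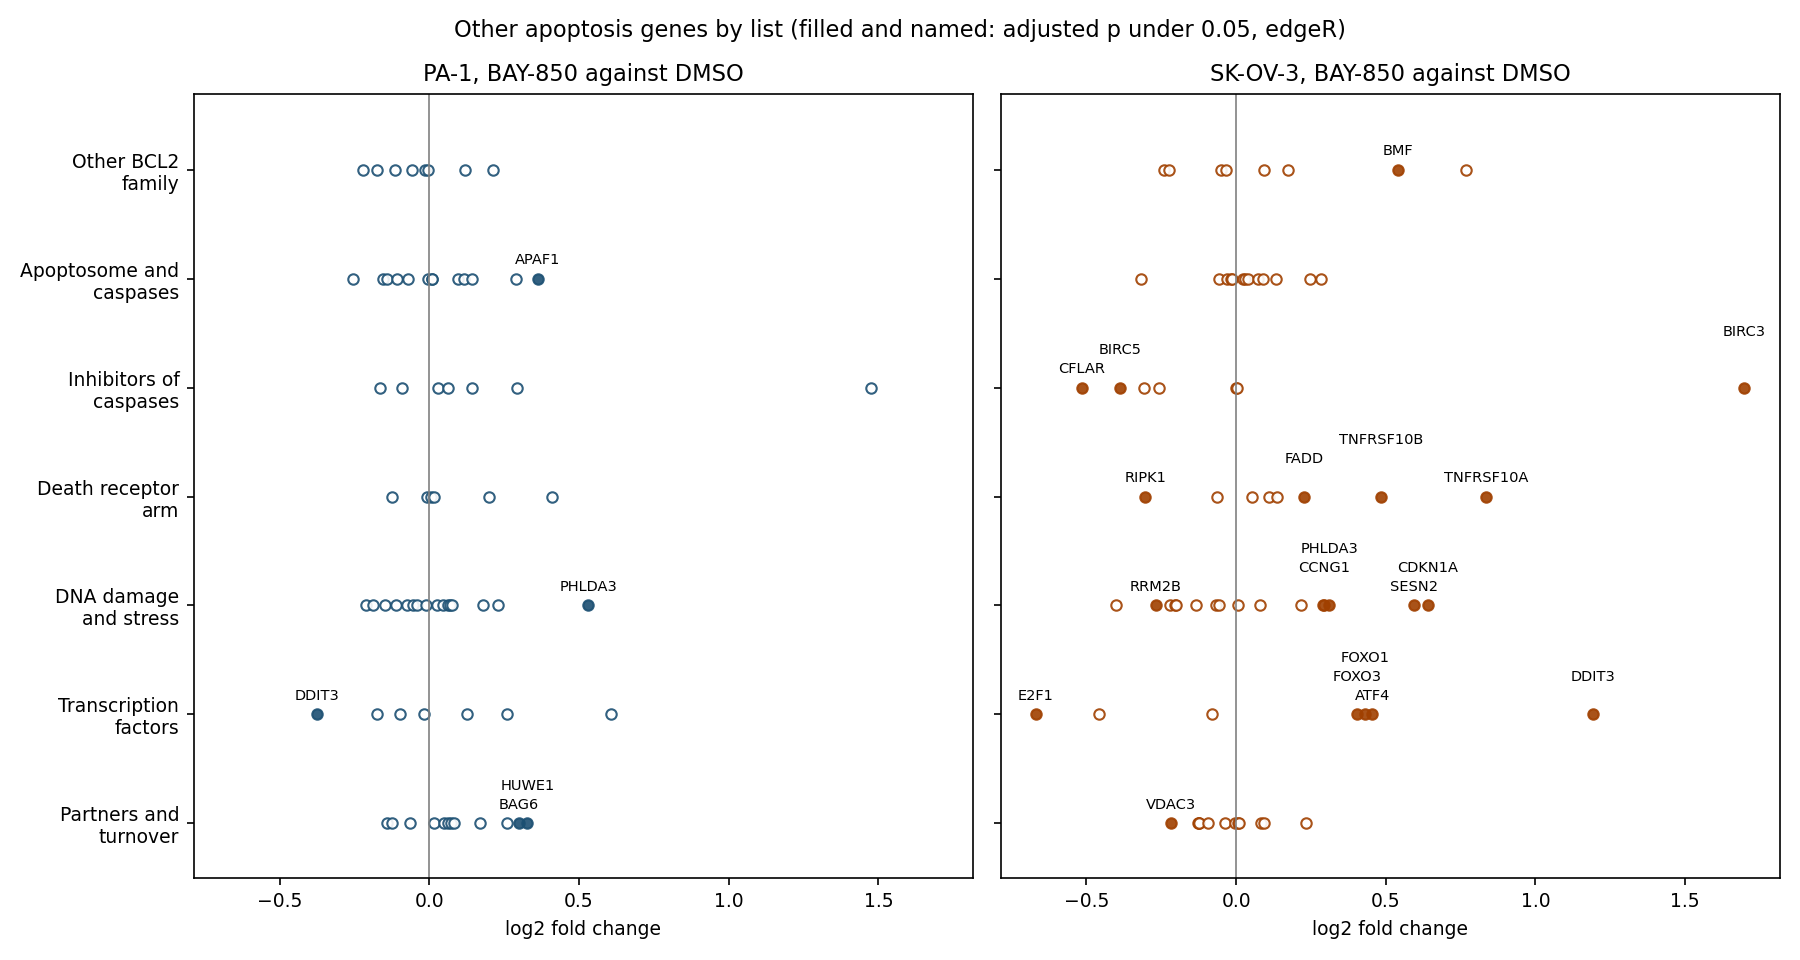
Log2 fold changes of the other apoptosis genes, BAY-850 against DMSO, in PA-1 (left) and SK-OV-3 (right), with 1 point per gene tested and 1 row per list. Filled, named points passed an adjusted p of 0.05 in edgeR, 5 in PA-1 and 19 in SK-OV-3, where BIRC3 (1.70) and DDIT3 (1.19) lie farthest to the right.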

How the data were processed

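The submitters' processing notes name Bowtie2 2.1.0, RSEM 1.2.15 and hg38, and the authors deposited RSEM expected counts per gene symbol for all 12 libraries. The annotation is not given in the sources used here, nor is whether strand was used in counting. The study's methods describe poly(A) selection and stranded libraries, and the series text describes ribosomal depletion. Expected counts were rounded, filtered with filterByExpr, scaled by TMM and tested with the edgeR 4.0.16 quasi-likelihood test in R 4.3.3 (two-sided, Benjamini-Hochberg adjustment over all genes tested, threshold 0.05). Each line was fitted on its 6 libraries, the difference between responses on all 12 and the lines under DMSO on their 6 DMSO libraries. DESeq2 1.42.0 and limma 3.58.1 were alternatives, with further scalings, filters, a GC correction, a replicate block and each library left out. Lengths and positions came from GENCODE (GRCh38), for 24678 of 26475 symbols.

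The members and lists were chosen with earlier results of these data known. Named genes were all members, every listed gene called in either line, and the 3 genes most like each called member. Some listed genes are not reported here and are left out of the list counts. On simulated counts with 200 changed genes, a log2 change of 0.6 was found for 94.4% in PA-1 and 39.6% in SK-OV-3. A change of 1 was found for 100% and 98.1%. For the difference between the responses the shares were lower, 16.5% for a change of 0.6 and 67% for a change of 1. These shares bound what these 3 replicates per group can show. Total counts of 34544505 to 51840233 gave common biological coefficients of variation of 0.0916 in PA-1 and 0.144 in SK-OV-3.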

Additional observations from a re-analysis of the deposited data

Results flagged for a closer look

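The responses of the lines to BAY-850 were compared by the test of the difference itself, in edgeR and over all 16830 genes tested. They differed for 2 of the 10 members and 17 of the 72 listed genes tested. Over all genes, 6.7% were called for a higher response in SK-OV-3 and 7.77% for a lower one. Values are the log2 fold change in SK-OV-3 minus that in PA-1. The members were BBC3 (1.79) and PMAIP1 (0.36).

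Among listed genes the SK-OV-3 response was the higher for DDIT3 (1.56), BIRC3 (1.4), SESN2 (0.696), ATF4 (0.616), CDKN1A (0.606), BMF (0.587), FOXO1 (0.517), FADD (0.341) and CCNG1 (0.337). It was the lower for BIRC7 (-1.8), E2F1 (-0.663), ZMAT3 (-0.483), HUWE1 (-0.462), BIRC6 (-0.411), BIRC5 (-0.306), BAG6 (-0.302) and VDAC1 (-0.215). Of these 17 calls, 8 held in every alternative: BMF, BIRC3, FADD, SESN2, CCNG1, DDIT3, ATF4 and E2F1. Without SK-OV-3 BAY-850 replicate 3 there were 14, the calls of BIRC5 (adjusted p = 0.0588), VDAC1 (0.0599) and BAG6 (0.0824) being lost. BIRC7 rested on group means of 0.317 to 1.58 CPM.

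DDIT3 was called in opposite directions in the lines, lower in PA-1 and higher in SK-OV-3. Groups of 3 libraries were not tested for outliers.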

How the results depend on the processing

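BBC3 kept its call in SK-OV-3 under all 17 alternatives (log2 fold change 1.61 to 1.87) and in the difference between the lines under all 22 (1.64 to 1.90). The count of members called in PA-1 stayed at 0 in every alternative. The SK-OV-3 count of 2 became 1 with library size alone, library size without ribosomal RNA genes, no filter on low counts, the replicate block and all 12 libraries in 1 fit, and ran from 1 to 5 with a library left out. The count of 2 for the difference between the lines became 1 under limma-voom and the replicate block, and ran from 1 to 2 with a library left out. It became 3, with BCL2L1 added, under DESeq2 (3303 of 16830 genes called) and with the GC trend removed (2610 of 16265). The main fit called 2435 of 16830 genes. In each case of 1 call the gene lost was PMAIP1. The count of 6 between the lines under DMSO never fell. It reached 8 with library size without ribosomal RNA genes (12897 of 16070 genes called) and without SK-OV-3 DMSO replicate 1 (12875 of 16381). The summed pro- over anti-apoptotic log2 ratio without a length was -1.69 in PA-1 DMSO, -1.57 in PA-1 BAY-850, -1.35 in SK-OV-3 DMSO and -1.20 in SK-OV-3 BAY-850.

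Signs turned only for values that did not pass the main test in their own comparison. In PA-1 these were BCL2L11 with library size alone (-0.0137), BAD without a filter (0.0026) and under limma-voom (0.0025), and BCL2 with the GC trend removed (0.0186). In SK-OV-3 it was BAK1 with the GC trend removed (-0.0027). For the difference between the lines it was MCL1 with library size alone (0.0328), without ribosomal RNA genes (0.011) and with at least 10 counts in every library (0.0061), and under DMSO MCL1 with the GC trend removed (-0.0161). With a library left out, PA-1 values ran from -0.0952 to 0.158 for BCL2L11, -0.0854 to 0.105 for BAD, -0.106 to 0.0717 for BCL2 and -0.0757 to 0.0154 for BBC3, and SK-OV-3 values from -0.0217 to 0.131 for BAK1. The difference between the lines ran from -0.0747 to 0.124 for BID, -0.0149 to 0.217 for BAD, -0.0338 to 0.0868 for BAX and -0.0437 to 0.0178 for MCL1. Under DMSO the ranges were -0.00832 to 0.167 for BID and -0.00493 to 0.221 for BAD. The cause of these shifts was not tested.

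Over all genes, the 1085 calls in PA-1 became 1737 with DESeq2, 466 with library size alone, 616 with the GC trend removed and 683 with all 12 libraries in 1 fit. They became 489, 340 and 344 without PA-1 DMSO replicate 1, DMSO replicate 2 and BAY-850 replicate 2, and the 3130 in SK-OV-3 became 1781 and 1983 without SK-OV-3 DMSO replicates 2 and 3. The PA-1 fold changes followed gene GC content (Spearman's rho 0.37 over 14806 genes, 0.10 over 14909 in SK-OV-3), whose part in the results was not tested beyond that correction. Same-numbered libraries did not deviate together (correlations of -0.05 to 0.03), so no shared deviation by number was seen. The labels do not say whether the numbers pair the samples, and these correlations cannot settle it. With the replicate block PMAIP1 had an adjusted p of 0.0792 in SK-OV-3 and 0.0716 for the difference between the lines, and no other member changed its call. Expected counts share ambiguous reads between genes, and a small change such as that of PMAIP1 lies near what 3 libraries a group can resolve.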
